A study of Medicago truncatula with 6 samples.

Results

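The transcripts of 6 candidate mechanosensitive channel genes were counted in root hairs of the legume Medicago truncatula, out of 50897 transcripts listed in all. The genes were taken by identifier, in a choice made with earlier results of these data known. They comprise the MSL (MscS-like) genes Medtr3g104940 and Medtr1g113850, the PIEZO genes Medtr1g089760 and Medtr7g113930, the MCA (Mid1-complementing activity) gene Medtr5g022670 and the CSC/OSCA gene Medtr4g082340. They are candidates by membership of their gene families, and channel activity was not measured. The study had already listed them as seen in root hairs, so their levels are given here as a description.

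The samples were root hairs of wild type A17 plants (ecotype Jemalong A17) at 5 days of age, and each library came from a pool of plants, with the repeats made independently. Plants treated with Nod factors (NF) for 20 h gave 2 libraries, plants treated with NF for 4 h gave 2 libraries, and water-treated control plants gave 1 library, control replicate 2, whose label carries a time of 4 h. The series holds 6 samples, and control replicate 1 was not analysed here. Both treatments were set against this 1 control library, so at 20 h the time since treatment cannot be told apart from NF. Root hairs were shaken off frozen root segments from which the tip had been removed, so each value is an average over all hairs of the segment.

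Mechanosensitive channels open when the membrane around them is stretched and so turn a mechanical force into an ion flux. A root hair grows at its tip under turgor and deforms and curls around rhizobia after perceiving NF, the lipochitooligosaccharides these bacteria secrete, which also trigger ion fluxes and calcium signals. Families that could hold such channels in plants were named from work in other species. MSL proteins resemble the bacterial channel MscS, and in Arabidopsis MSL10 is a stretch-gated channel that prefers anions. PIEZO proteins are very large, and those of the mouse are mechanically gated cation channels. Arabidopsis MCA1 allows calcium entry when expressed in a yeast mutant lacking Mid1, and Arabidopsis OSCA1 is a calcium-permeable cation channel gated by hyperosmotic stress.

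For 1 member, Medtr3g104940, the study designed primers for RT-qPCR. They are shown because they are the only sequences of a member used here and because this gene had the lowest fold change against the control. The RT-qPCR values are not used here. Both are written 5′ to 3′ in lower case, with no part marked.
Medtr3g104940 forward: gagaaaattggggcactgaa
Medtr3g104940 reverse: cacttctccgcttggtcttc
Each primer is 20 bases long. The forward primer has 45% G and C bases and the reverse primer 55%.

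The libraries held 39199411 to 47302574 counted read pairs, which was 72.1 to 73.0% of the pairs parsed. A count of 3 pairs, used as the floor for detection, stood for 0.0634 to 0.0765 CPM, the count scaled to the same total in every library. The NF treatments were visible in the genes known to respond to NF. The transcription factor gene MtNIN was at 46.3 and 40.8 CPM in the NF 20 h libraries, 27.9 and 24.8 CPM in the NF 4 h libraries and 4.34 CPM in the control. All 5 response markers (MtENOD11, MtENOD12, MtAnn1, MtNIN and MtERN1) rose at both 20 h and 4 h. Fold changes at 4 h were 117 for MtENOD11, 81.0 for MtENOD12, 22.1 for MtAnn1, 6.07 for MtNIN and 2.00 for MtERN1. Of these 4 h changes only that of MtNIN passed the test. The control library held 2 pairs of MtENOD11 and 1 pair of MtENOD12, both below the floor of 3 pairs. The sizes of their fold changes are therefore uncertain. At the confidence level used for all intervals here, they ran between 17.2 and 800 for MtENOD11 and between 17.3 and 380 for MtENOD12. The receptor genes MtLYK3 and MtNFP, which act in the epidermis, lay between 180 and 253 CPM and between 76.3 and 128 CPM across the libraries. Of the genes known from vascular tissue, MtSUNN had 0 to 7 pairs in a library and MtRDN1 lay between 2.26 and 2.81 CPM.

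All 6 members were detected in every library, but at levels that spanned a wide range. FPKM, here the CPM per kilobase of transcript, is the scale used to compare genes, since the transcripts differ in length, between 1948 bases for Medtr5g022670 and 7916 bases for Medtr7g113930. Every member reached 1 FPKM, the limit that the study set for expression, in all 5 libraries. So did MtRDN1, known from vascular tissue, at 2.14 to 2.66 FPKM. The study set its limit on FPKM estimated from alignment to the genome, while FPKM here comes from pairs counted on transcripts. The intervals given for single libraries are exact 95% Poisson intervals and cover counting error only.

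The CSC/OSCA gene Medtr4g082340 stood far above the others, at 65.6 to 89.0 FPKM. By FPKM it held places 1161 to 1619 among the 50897 transcripts listed, of which 26031 to 27009 had at least 1 pair in a library. The PIEZO gene Medtr1g089760 followed with 7.15 to 12.2 FPKM, and its range did not overlap that of any other member. The MSL gene Medtr3g104940, the MCA gene Medtr5g022670 and the PIEZO gene Medtr7g113930 came next, with 2.82 to 5.58, 2.10 to 2.91 and 1.48 to 2.12 FPKM. Neighbours among these 3 overlapped, and each pair stood in this order in 4 of 5 libraries. The MSL gene Medtr1g113850 was lowest, at 1.09 to 1.46 FPKM, and its range lay below that of Medtr7g113930. It was also the member closest to the limit for expression, and in NF 4 h replicate 1 the interval of its 1.09 FPKM ran between 0.927 and 1.27 FPKM.

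**Figure D1:**
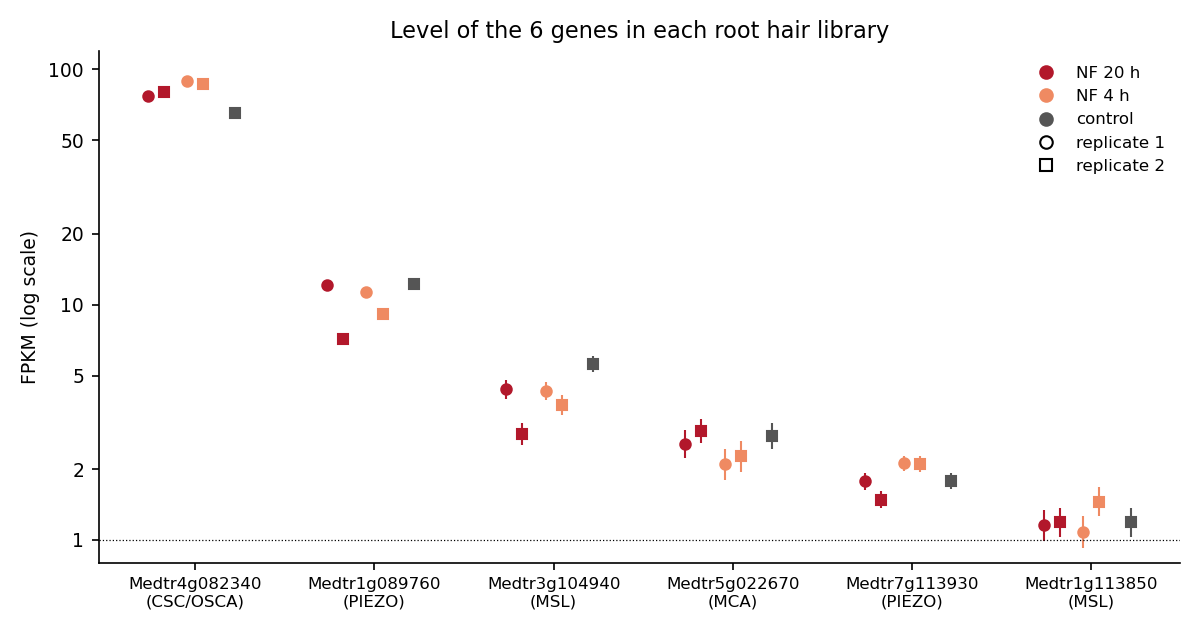
FPKM (log axis) of the 6 genes in each library, with circles for replicate 1, squares for replicate 2 and exact 95% Poisson intervals as bars. The dotted line marks 1 FPKM, which every point exceeds, and Medtr4g082340 lies at 65.6 FPKM or more in all 5 libraries.

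Within their families the members held very different places. The 4 families comprised 27 genes in the study's list of transport genes, of which 10 were MSL, 2 PIEZO, 2 MCA and 13 CSC/OSCA. Between 17 and 18 of the 27 reached 1 FPKM in a library. Of the others, 7 genes had at most 10 pairs in every library, and the CSC/OSCA gene Medtr7g011610 had 0 pairs in all 5 libraries.

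Medtr4g082340 was the highest of the 27 genes. It made up 38.2 and 43.8% of the summed FPKM of the CSC/OSCA family in the NF 20 h libraries, 44.0 and 46.0% in the NF 4 h libraries and 36.2% in the control. All 4 NF libraries thus lay above the control in this share. The next gene of the family, Medtr4g132570, averaged 27.1 FPKM over the 5 libraries, and Medtr4g082340 exceeded it by 2.45 to 3.55 times in each library.

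Medtr5g022670 was nearly the sole MCA transcript, with 96.0 to 99.5% of the FPKM of its family. The other MCA gene, Medtr8g075150, had 1 to 10 pairs in a library. Of the PIEZO pair, Medtr1g089760 held 81.2 to 87.2%. Its FPKM over that of Medtr7g113930 was 6.82 and 4.82 in the NF 20 h libraries, 5.34 and 4.33 in the NF 4 h libraries and 6.83 in the control. NF 20 h replicate 1 and the control were close to each other, and the other 3 libraries lay below them.

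The MSL members were minor transcripts of their family taken as a whole. The study named both as clade II genes expressed in root hairs. It describes clade II proteins of Arabidopsis as predicted or shown to lie in the plasma membrane, and those of clade I as lying in endomembranes. The clades were not separated here. The highest MSL gene, Medtr5g032090, averaged 17.1 FPKM, and 3 more MSL genes averaged between 6.05 and 14.8 FPKM, above both members. Medtr3g104940 made up 7.90 and 5.93% of the MSL FPKM in the NF 20 h libraries, 7.80 and 7.25% in the NF 4 h libraries and 10.5% in the control, and Medtr1g113850 between 1.97 and 2.82%. Medtr3g104920 and Medtr3g104990, whose identifiers neighbour that of Medtr3g104940, had 23 to 38 and 0 to 4 pairs in a library. Pairs were counted only where both reads mapped unambiguously to 1 gene, so any pairs shared by near-identical copies would be lost. Whether these 3 genes are such copies was not tested, and their levels are uncertain to that extent.

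**Figure D2:**
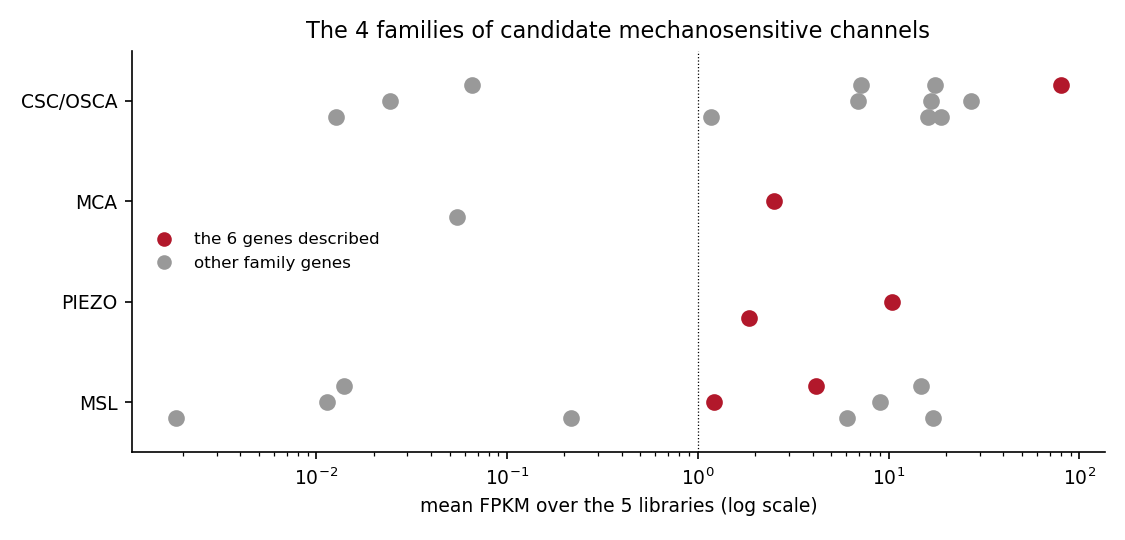
Mean FPKM over the 5 libraries (log axis) of the genes of the 4 families, with the 6 genes described in red and the other family genes in grey. Points are shifted vertically only to separate them, and Medtr7g011610, at 0 in all libraries, is not drawn. Medtr4g082340 is the rightmost point, and the 2 red MSL points lie left of 4 grey MSL points.

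NF for 20 h against the control was the first comparison, which asks whether these genes change by the time NF-treated hairs carry their response markers. No member passed the test (edgeR quasi-likelihood, Benjamini-Hochberg adjusted p under 0.05 over 22091 genes), with a background of 325 genes called, or 1.47%. None of the 6 had an unadjusted p under 0.05, against 11.8% of all genes. DESeq2 and edgeR's exact test also called 0 members, where they called 4.1 and 5.83% of all genes. A fit with a replicate block, given in the closing section because the labels do not pair the replicates, did call members. These were Medtr3g104940 (log2 fold change -0.87) and Medtr1g089760 (-0.66), where 12.2% of all genes were called. The median log2 fold change of the members was -0.08, that of the 20 family genes tested -0.02 and that of all genes tested -0.00015.

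The MSL gene Medtr3g104940 was the member with the lowest fold change at 20 h. It had 479 and 348 pairs in the NF 20 h libraries, 487 and 384 pairs in the NF 4 h libraries and 665 pairs in the control, or 4.37 and 2.82, 4.30 and 3.75, and 5.58 FPKM. All 4 NF libraries were lower than the control, whose interval ran between 5.17 and 6.02 FPKM, and the NF groups overlapped each other. Means were 3.59 ± 1.10 FPKM in NF 20 h and 4.02 ± 0.389 FPKM in NF 4 h root hairs (SD, n = 2 each), against 5.58 FPKM in the control. The fold change at 20 h was 0.643 (95% interval 0.389 to 1.06), a log2 value of -0.64 with an SE of 0.29 (edgeR adjusted p = 0.510). Without NF 20 h replicate 2 the log2 fold change was -0.35, and without replicate 1 it was -0.99.

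The PIEZO gene Medtr1g089760 showed the same order with a wider spread. It had 12.1 and 7.15 FPKM in the NF 20 h libraries, 11.3 and 9.09 FPKM in the NF 4 h libraries and 12.2 FPKM in the control. All 4 NF libraries were below the control, but NF 20 h replicate 1 differed from it by little. The mean in NF 20 h root hairs was 9.64 ± 3.52 FPKM (SD, n = 2), and the fold change was 0.789 (95% interval 0.448 to 1.39, edgeR adjusted p = 0.823). This value depended on which NF 20 h library was kept. The log2 fold change of -0.34 was -0.01 without NF 20 h replicate 2 and -0.77 without replicate 1. The other PIEZO gene, Medtr7g113930, had 1.78 and 1.48 FPKM in the NF 20 h libraries, against 1.79 FPKM in the control, and its fold change was 0.912 (95% interval 0.659 to 1.26, edgeR adjusted p = 0.885).

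Medtr4g082340 was the only member above the control in all 4 NF libraries. It had 9401 and 10960 pairs in the NF 20 h libraries, 11183 and 9872 pairs in the NF 4 h libraries and 8667 pairs in the control, or 77.3 and 79.9, 89.0 and 86.9, and 65.6 FPKM. The 3 groups did not overlap. Means were 78.6 ± 1.88 FPKM in NF 20 h and 87.9 ± 1.49 FPKM in NF 4 h root hairs (SD, n = 2 each). At 20 h its fold change was 1.199 (95% interval 0.922 to 1.56, edgeR adjusted p = 0.648).

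The remaining members differed little from the control at 20 h. Medtr5g022670 had 2.57 and 2.91 FPKM in the NF 20 h libraries and 2.76 FPKM in the control, which lay between them, with a fold change of 0.993 (95% interval 0.668 to 1.48, edgeR adjusted p = 0.994). Medtr1g113850 had 1.16 and 1.19 FPKM in the NF 20 h libraries and 1.19 FPKM in the control, with a fold change of 0.986 (95% interval 0.613 to 1.58, edgeR adjusted p = 0.990). Both intervals leave room for changes in either direction, so the tests do not show that the levels were equal. Across the members, 5 of 6 had NF 20 h libraries that did not overlap the control (1 higher, 4 lower), where 68.1% of all tested genes did so with a single control library. For most of the lower members the gap was very small. The nearer NF 20 h library was 0.999 of the control for Medtr1g113850, 0.995 for Medtr7g113930, 0.993 for Medtr1g089760 and 0.782 for Medtr3g104940.

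**Figure D3:**
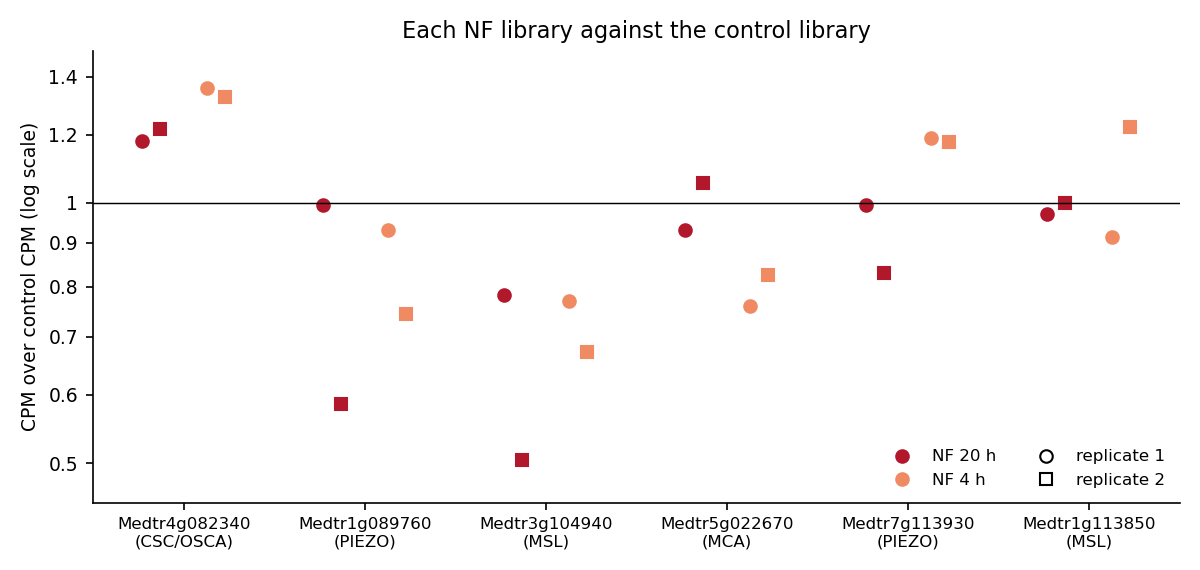
CPM of each NF library divided by the CPM of the control library (log axis), for the 6 genes, with NF 20 h in dark red, NF 4 h in orange, circles for replicate 1 and squares for replicate 2. All 4 points of Medtr4g082340 lie above 1, and all 4 points of Medtr3g104940 and of Medtr1g089760 lie below 1, the last with its highest point just under the line.

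NF for 4 h against the control was the second comparison, made at the earlier time. No member was called by edgeR's quasi-likelihood test, DESeq2 or the exact test. The background was 151 genes called by the quasi-likelihood test, or 0.684%, with 2.61% called by DESeq2 and 3.82% by the exact test. Medtr4g082340 alone had an unadjusted p under 0.05, as did 9.28% of all genes. Its fold change was 1.34 (95% interval 1.03 to 1.75), a log2 value of 0.42 with an SE of 0.15 (edgeR adjusted p = 0.468). The median log2 fold change was -0.08 for the members, 0.02 for the family genes tested and -0.03 for all genes tested. This comparison shares its control library with that at 20 h.

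The other members stayed within wide intervals at 4 h. Medtr3g104940 had a fold change of 0.721 (95% interval 0.435 to 1.195, edgeR adjusted p = 0.804), and Medtr1g089760 one of 0.837 (95% interval 0.474 to 1.48, edgeR adjusted p = 0.955). Medtr7g113930 had 2.12 and 2.10 FPKM in the NF 4 h libraries and 1.79 FPKM in the control, so both replicates were higher, by a fold change of 1.18 (95% interval 0.851 to 1.64, edgeR adjusted p = 0.880). The MCA gene Medtr5g022670 had 2.10 and 2.28 FPKM in the NF 4 h libraries and 2.76 FPKM in the control, so both replicates were lower, with a fold change of 0.793 (95% interval 0.535 to 1.18, edgeR adjusted p = 0.839). Medtr1g113850 had 1.09 and 1.46 FPKM in the NF 4 h libraries, on either side of the 1.19 FPKM of the control, and a fold change of 1.07 (95% interval 0.663 to 1.72, edgeR adjusted p = 0.983). In all, 5 of 6 members did not overlap the control at 4 h (2 higher, 3 lower), against 71.1% of all genes tested.

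NF for 20 h against NF for 4 h compares the treatment times with 2 libraries on each side. No member was called by edgeR's quasi-likelihood test, DESeq2 or the exact test, and none had an unadjusted p under 0.05 (10.7% of all genes did). The background was 11 genes called by the quasi-likelihood test, or 0.0498%, with 3.25% called by DESeq2 and 4.11% by the exact test. The PIEZO gene Medtr7g113930 had the lowest p, with 591 and 555 pairs in the NF 20 h libraries and 729 and 652 pairs in the NF 4 h libraries. Its means were 1.63 ± 0.210 FPKM in NF 20 h and 2.11 ± 0.016 FPKM in NF 4 h root hairs (SD, n = 2 each), and the groups did not overlap. The fold change was 0.772 (95% interval 0.591 to 1.01, edgeR adjusted p = 0.486).

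Medtr5g022670 was the member with the highest fold change between the treatment times. It averaged 2.74 ± 0.240 FPKM in NF 20 h and 2.19 ± 0.129 FPKM in NF 4 h root hairs (SD, n = 2 each), without overlap, with a fold change of 1.25 (95% interval 0.904 to 1.74, edgeR adjusted p = 0.694). Medtr4g082340 was lower at 20 h, again without overlap, with a fold change of 0.894 (95% interval 0.723 to 1.11, edgeR adjusted p = 0.804). These 3 of 6 members did not overlap between the times, against 38.9% of all genes tested. The other 3 members had fold changes between 0.892 and 0.943, and all 3 intervals included 1.

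**Figure D4:**
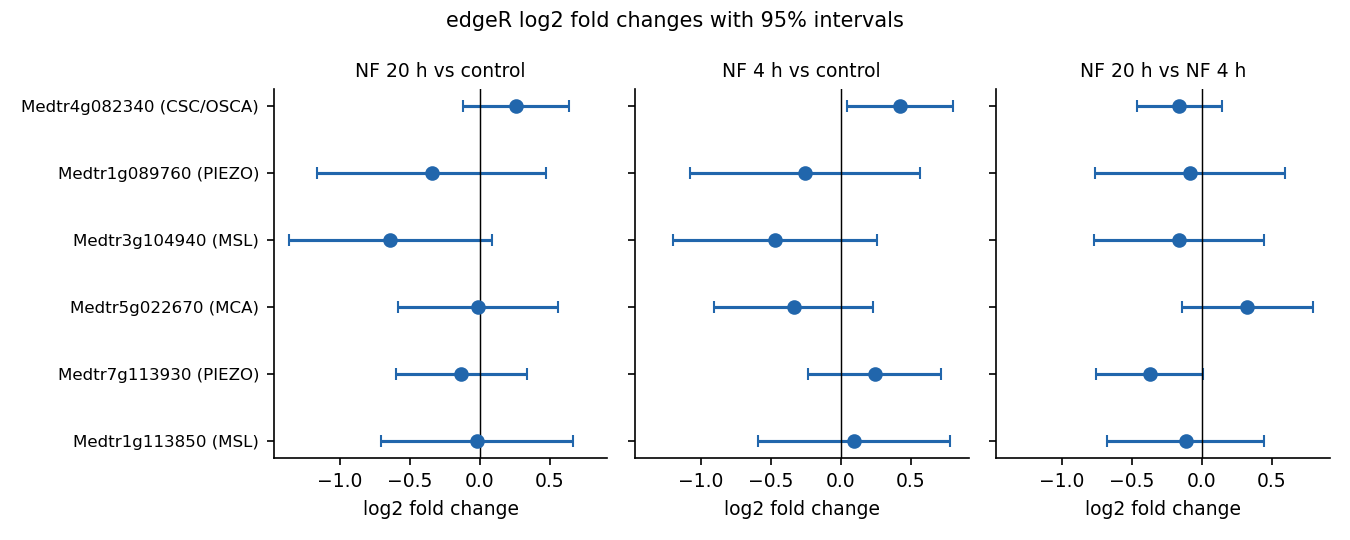
edgeR log2 fold changes (points) of the 6 genes with 95% intervals (bars) in NF 20 h against control, NF 4 h against control and NF 20 h against NF 4 h. All intervals include 0 except that of Medtr4g082340 in NF 4 h against control, whose adjusted p was 0.468.

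Over both times, 3 of 6 members had all 4 NF libraries on one side of the control, with Medtr4g082340 higher and Medtr3g104940 and Medtr1g089760 lower, as did 43.2% of all genes tested. The replicates limited what could be seen for the lower pair. In NF 20 h root hairs Medtr3g104940 and Medtr1g089760 differed 1.5-fold or more between replicates, as did 14% of the 17010 tested genes that averaged 1 CPM or more. The level in replicate 2 was 0.590 of that in replicate 1 for Medtr1g089760 at 20 h and 0.801 of it at 4 h. In NF 4 h root hairs 0 of 6 members differed so much, against 9.38% of 16862 genes. In bulk root hairs, fewer hairs that express a gene and less RNA in each hair cannot be told apart.

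The rest of the 4 families had no calls either. Of the 27 genes, 20 had enough pairs to be tested, the 6 members and 14 others. The edgeR quasi-likelihood test called 0 of the 20 in each comparison, and 0, 2 and 0 had an unadjusted p under 0.05 in NF 20 h against control, NF 4 h against control and NF 20 h against NF 4 h, where 11.8, 9.28 and 10.7% of all tested genes did. The lowest adjusted p among them was 0.354, for the CSC/OSCA gene Medtr5g086610 at 4 h with a log2 fold change of -0.50, a gene picked for this p. Among the 10 CSC/OSCA genes tested, 7 had a fold change above 1 at 20 h and 5 at 4 h, and among the 7 MSL genes tested, 2 did so at 20 h and 5 at 4 h. Of all 22091 genes tested, 11043 had a fold change above 1 at 20 h and 10035 at 4 h, and with so few genes in a family these counts are given as a description only.

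The reads in counted pairs, as a percentage of the count of single reads, differed among members. This ratio is not a share of reads, since it reached 120% for MtSUNN in NF 4 h replicate 1. The ratio was 97.2 to 98.7% for Medtr1g089760, 88.6 to 92.7% for Medtr3g104940, Medtr7g113930, Medtr5g022670 and Medtr4g082340, and 78.3 to 86.8% for Medtr1g113850, against 92.0 to 92.4% over all genes. Medtr1g113850 thus had the lowest ratio of the members, and the reason was not tested.

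The genes with the most similar patterns over the 5 libraries were looked up among 10227 tested genes that averaged 10 CPM or more. The measure was the root mean square difference of log2(CPM + 1) values, each gene centred on its own mean. For Medtr3g104940 the nearest was Medtr0103s0090, at a distance of 0.0199, with 65.0 and 44.0 CPM in the NF 20 h libraries, 65.9 and 58.8 CPM in the NF 4 h libraries and 83.9 CPM in the control. For Medtr1g089760 it was Medtr3g085130 (0.0245), for Medtr7g113930 Medtr7g071990 (0.0224), for Medtr5g022670 Medtr6g004010 (0.0232), for Medtr1g113850 Medtr1g115980 (0.0135) and for Medtr4g082340 Medtr1g021855 (0.0210). Such closeness was common. Within a distance of 0.1 lay 49 genes for Medtr3g104940, the fewest of any member, and 601 genes for Medtr1g113850, the most. A gene with no variation at all would lie at 0.294 from Medtr3g104940 but at only 0.116 from Medtr1g113850. The count for Medtr1g113850 is thus that of a nearly flat gene.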

How the data were processed

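Poly(A) RNA of root hairs was sequenced as read pairs. Per the labels and methods, the authors trimmed the reads and mapped them with Bowtie2 (version 2.0 in the submitters' processing notes) to Medicago transcripts of release Mt4.0v1, and the deposited files give, per transcript, the count of read pairs with both reads unambiguously on the same gene, the count of single reads and the length. The labels name a TruSeq RNA kit and the methods a stranded one, so counting by strand is unsure. The deposited counts were analysed as they stood. CPM is the count over the library total and FPKM is CPM per kilobase of deposited length. edgeR 4.0.16 in R 4.3.3 was used with library-size normalization, filterByExpr, 1 coefficient per treatment over 5 libraries (2 residual degrees of freedom), the quasi-likelihood test (legacy method) and Benjamini-Hochberg adjustment. The control has 1 library and was taken to vary like the NF groups. Per the study's methods the repeats of each treatment were independent pools of plants. Scripts were tested on simulated data. Alternatives were TMM, DESeq2 1.42.0, no filter, the exact test, only the groups compared, a replicate block, leaving out each NF library, and other length and limit settings, and, chosen after seeing the data, single reads and the bias-adjusted quasi-likelihood test of edgeR.

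By rule, the genes named with values are the 6 members, other family genes called in any comparison, the highest gene of each family, MSL genes with identifiers neighbouring Medtr3g104940, the gene at 0 in every library, the nearest pattern of each member and marker genes. Medtr4g132570, Medtr8g075150, Medtr5g086610 and Medtr5g027510 fall outside this rule and were chosen after their values were seen. The members and lists were chosen with earlier results of these data known. The reference names matched 0 of 6 members, so no coordinates or proteins are given.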

Additional observations from a re-analysis of the deposited data

Results flagged for a closer look

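Medtr7g113930 stood out because the treatment times lay on opposite sides of the control, with 14.1 and 11.7 CPM in the NF 20 h libraries, 16.8 and 16.6 CPM in the NF 4 h libraries and 14.1 CPM in the control. NF 20 h replicate 1 differed from the control by less than the counting error of either. The difference between the times was tested directly, with a log2 fold change of -0.37 for NF 20 h over NF 4 h (SE 0.15), and it did not pass (edgeR adjusted p = 0.486).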

How the results depend on the processing

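No member was called under TMM, DESeq2, no filter, the exact test, only the groups compared, single reads, the bias-adjusted test or any omission of a library. Apart from the omissions, these settings called 0.00395 to 5.83% of all genes, depending on the comparison. Of 144 log2 fold changes of members under alternatives that keep all libraries, 141 kept their direction. The others were near 0 at 20 h, Medtr1g113850 with 0.037 for single reads and 0.095 with the replicate block, and Medtr5g022670 with 0.062 with the block. Leaving out 1 NF library reversed 6 of 72 values, within ranges of -0.10 to 0.076 for Medtr5g022670 at 20 h, -0.13 to 0.29 for Medtr1g113850 at 4 h, and, for NF 20 h over NF 4 h, -0.52 to 0.12 for Medtr3g104940, -0.31 to 0.11 for Medtr1g113850 and -0.52 to 0.25 for Medtr1g089760.

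Labels give the replicates a number and no shared origin, so the numbers were not taken to pair the samples. Across 22091 genes the replicate 2 minus replicate 1 differences at 20 h and 4 h had a correlation of 0.505. With the replicate block, 1 residual degree of freedom is left, and 12.2, 7.47 and 8.84% of all genes were called in NF 20 h against control, NF 4 h against control and NF 20 h against NF 4 h. At 20 h 2 of 6 members were called, Medtr3g104940 (log2 fold change -0.87, edgeR adjusted p = 0.0201) and Medtr1g089760 (-0.66, adjusted p = 0.0223). Of the 20 family genes tested, the block called 2, 2 and 1 in the same 3 comparisons. Beyond those members these were Medtr5g027510 and Medtr5g086610 at 4 h, and Medtr5g027510 between the times, named after their values were seen.

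The number of genes called in all depended on the setting. At 20 h, in place of 325 genes, DESeq2 called 906, no filter 717, the exact test 1289, only the groups compared 618, the block 2706, and omissions of 1 library 350 to 639 (639 without NF 4 h replicate 1, 624 without NF 4 h replicate 2). At 4 h, in place of 151, the counts were 577, 440, 843, 363, 1650 and 210 to 366 (311 without NF 4 h replicate 2, 334 and 366 without NF 20 h replicates 1 and 2). Between the times, in place of 11, DESeq2 called 718, no filter 308, the exact test 909, the block 1952, single reads 1 and omissions 0 to 108. Omission of NF 20 h replicates 1 and 2 gave 1 and 0, and of NF 4 h replicates 1 and 2 gave 108 and 35. The exact test split the calls at 20 h into 643 higher and 646 lower, against 243 higher and 82 lower, and DESeq2 into 569 higher and 337 lower. Between the times DESeq2 gave 343 higher and 375 lower, against 8 higher and 3 lower. The cause of these differences in the number of genes called was not tested. Shortening each length by the 260 base fragment size moved 11 of 18 FPKM means by more than 1 SD or the counting interval. This shift is arithmetic, since the same CPM was divided by a shorter length. Depth limits Medtr1g113850 most, with 165 to 200 pairs in a library.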
